A study of Mus musculus with 12 samples.

Results

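The mRNAs of 39 receptors for neuropeptides and peptide hormones were followed in the mouse hippocampus after inhibition of miR-9 or of miR-34. The receptors are a list of gene symbols from 20 ligand families, taken out of 23781 gene symbols by summing the RefSeq entries that carry each symbol. All 12 animals were male C57BL/6 mice that received an adeno-associated virus of serotype 5 in both hippocampi at an age of 10 weeks, and the tissue was taken 10 weeks later. In the miR-9 experiment 3 mice carried GFP-miR-9sp and 3 carried GFP Ctrl, and in the miR-34 experiment 3 mice carried GFP-miR-34sp and 3 other mice carried GFP Ctrl. A sponge (sp) is a transcript with a row of binding sites that takes up the miRNA, so the GFP Ctrl vector differs from it by lacking those sites. In all groups the synapsin promoter restricted the transgene to neurons, whereas the RNA came from the whole dissected hippocampus, in which the summed astrocyte markers amounted to 3198 to 3639 CPM, the reads of a gene relative to the library total. The labels call the cells hippocampal neurons, and the libraries therefore also hold glia and cells without vector.

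Peptide receptors are G protein-coupled receptors of the cell surface. Their ligands are stored in dense-core vesicles, act at low concentrations and at a distance from the release site, and in the hippocampus many of them come from interneurons (somatostatin, NPY, cholecystokinin, VIP) or from afferents of the hypothalamus and brainstem. Receptors that couple to inhibitory G proteins, such as those for somatostatin, NPY and opioids, damp excitability or transmitter release, while receptors for VIP, PACAP or melanocortins raise cyclic AMP and those for oxytocin, neurotensin or tachykinins act through phospholipase C.

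A library of the miR-9 experiment held 17279620 to 24428477 counted reads and a library of the miR-34 experiment 11029604 to 16934133, and the 39 receptors together took 0.0427% to 0.0561% of them. Choroid plexus markers differed widely between the dissections. In the miR-34 experiment their sum was 655 to 2402 CPM in GFP Ctrl mice and 75.5 to 157 CPM in GFP-miR-34sp mice, and in the miR-9 experiment it ran from 57.4 to 900 CPM across both groups. Summed neocortex markers were 272.9 to 294 CPM after miR-34sp and 252 to 270.5 CPM in the GFP Ctrl mice of that experiment, and summed CA2 and CA3 markers were 244 to 258 CPM against 279 to 302 CPM. These lists moved with the miR-34sp comparison. Summed dentate gyrus granule cell markers overlapped, at 659 to 731 CPM after miR-34sp against 588 to 708 CPM. Of these 8 markers, 3 were higher after miR-34sp at an unadjusted p under 0.05 (edgeR; Dsp, Tdo2 and Lct) and 3 lay below 0. After miR-9sp 7 lay above 0, with 1 under that limit (Trpc6). The part of all these lists in the receptor values was not tested. In bulk tissue, fewer cells of a type and less RNA per cell cannot be told apart. Nothing beyond the mouse numbers says how the animals were housed or processed together, so p-values measure the spread between these mice. With 3 mice against 3, an exact permutation test could not give a p below 0.1, and the tests below come from models fitted across all genes.

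The sponges were directed against miRNAs that bind mRNAs through their seed, bases 2 to 8. The mature miRNAs are shown because they define the matches searched in the receptor mRNAs, with the seed in capitals, as RefSeq gives them on GRCm38.p6 (miR-34a on chromosome 4, miR-34b on chromosome 9, and miR-9 from genes on chromosomes 3, 7 and 13).
miR-9-5p: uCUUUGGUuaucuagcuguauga
miR-34a-5p: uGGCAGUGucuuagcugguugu
miR-34b-5p: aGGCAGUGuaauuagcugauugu
miR-34a and miR-34b share their seed. The longest annotated 3′ UTR (GENCODE M1, mm9) held the miR-9 match ACCAAAG in 6 of the 37 receptors with such a UTR, namely Npy1r, Oprl1, Vipr1, Vipr2, Mc4r and Trhr, and in 11.4% of all 19915 genes with a 3′ UTR. The miR-34 match CACTGCC was found in 6 of 37, namely Sstr1, Oprd1, Oprk1, Oprl1, Ntsr1 and Tacr3, and in 14.0% of all genes. The receptors had longer 3′ UTRs, with a median of 1610 bases against 893 over all genes. Among genes tested for expression, 5 of 31 receptors held the miR-9 match, against 13.9%, and 4 of 31 the miR-34 match, against 17.4%. Only Vipr2 and Tacr3 carried the longer 8mer form, in which an A follows the match, and Rxfp1 and Npffr1 had no annotated 3′ UTR. Some searched UTRs were short, such as 27 bases for Nmbr, 123 for Glp1r and 413 for Sstr1, whose match began at base 8. A match outside the annotated sequence would be missed. Both 8mer sites and the sites of 3 well expressed receptors are given with the match in capitals, on the strand of the mRNA.
Vipr2, miR-9 8mer, chr12:117383303-117383332, plus strand: ccattccctggACCAAAGAtaagtcaaaga
Npy1r, miR-9, chr8:69230081-69230109, plus strand: tttttctgacaACCAAAGcattttagggt
Tacr3, miR-34 8mer, chr3:134596302-134596331, plus strand: cagctgcttccCACTGCCAtgcaaagaaaa
Sstr1, miR-34, chr12:59314756-59314780, plus strand: ggccgggCACTGCCgggaggggggg
Oprd1, miR-34, chr4:131667569-131667597, minus strand: cgttcctcctcCACTGCCtgagggagcaa
A match of these letters is a description of the sequence and not a shown binding site.

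Of the 39 receptors, 33 were detected in the hippocampus, with a mean of more than 10 reads in the GFP Ctrl mice after scaling to the average total, and they were the same 33 in both experiments. The 6 others were Oprk1 (kappa opioid), Oprl1 (nociceptin), Crhr2 (urocortin), Hcrtr1 (orexin), Avpr1a (vasopressin) and Brs3, an orphan relative of the bombesin receptors. Oprk1 and Crhr2 were listed at 0 reads in all 12 mice, which allows up to 3 reads or 0.123 to 0.272 CPM in a mouse, a floor that covers counting error only. Oprl1 had 0 to 3 reads in a mouse, Hcrtr1 0 to 4 and Brs3 0 to 11. Avpr1a lay just under the limit, with 1 to 13 reads per mouse and a mean of 9.06 scaled reads in the GFP Ctrl mice of the miR-9 experiment and 8.99 in the other, while Avpr1b lay just above it with 10.9 and 16.2. With a limit of 5 reads 34 receptors would be counted, and with a limit of 50 reads 26 in the miR-9 and 22 in the miR-34 experiment.

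A listed 0 is no proof of absence in these tables. Of the 7 receptors with more than 1 RefSeq entry 4 were not detected (Oprk1, Oprl1, Crhr2 and Hcrtr1), against 2 of the 32 with a single entry. Over all genes of the miR-9 experiment, 58.7% of those with 1 entry were detected, 40.1% of those with 2 and 33.9% of those with 3 or more. How reads shared between entries were counted is not given in the sources used here. The levels of the other receptors with several entries, Npy2r, Sstr2 and Adcyap1r1, may accordingly be too low.

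By level per length, Sstr4, Sstr1 and Sstr3 were among the 5 highest receptors in both experiments. Sstr2, the other listed somatostatin receptor, lay lower, at 5.04 and 3.57 CPM per kb. Per kilobase of RefSeq length, Sstr4 had 25.0 ± 1.01 CPM (SD, n = 3) in the GFP Ctrl mice of the miR-9 experiment and 23.6 ± 2.61 in those of the miR-34 experiment, above every mouse of the next gene in both. Sstr1 followed with 19.1 ± 0.699 and 16.1 ± 1.85 CPM per kb. Npy1r, the postsynaptic receptor for NPY, had 18.8 ± 0.344 and 16.3 ± 2.42 CPM per kb. Sstr1 and Npy1r overlapped in both experiments, so their order was not resolved. Without division by length Sstr4 had 34.7 and 32.7 CPM, below Sstr1 (73.8 and 62.3), Npy1r (56.6 and 49.1) and Sstr3 (55.3 and 56.6). Sstr3, a receptor of the neuronal cilium, had 14.1 ± 0.585 and 14.4 ± 0.845 CPM per kb, and Mchr1, the receptor for melanin-concentrating hormone, which also sits in cilia, 11.1 ± 1.15 and 11.3 ± 1.76. Cckbr had 15.2 ± 3.38 CPM per kb in the miR-9 experiment, where it overlapped with Sstr3, and 6.34 ± 0.5 in the miR-34 experiment. Vipr1, Trhr, Oprd1 and Oxtr lay between 5.14 and 7.21 CPM per kb in both experiments, where Trhr overlapped with Vipr1 and Oprd1 with Oxtr. At the low end of the detected receptors were Galr1 (0.42 and 0.316 CPM per kb), Avpr1b (0.131 and 0.298) and Adcyap1r1 (0.194 and 0.218). Adcyap1r1 and Sstr2 each have 2 RefSeq entries, so their levels may be too low.

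**Figure D1:**
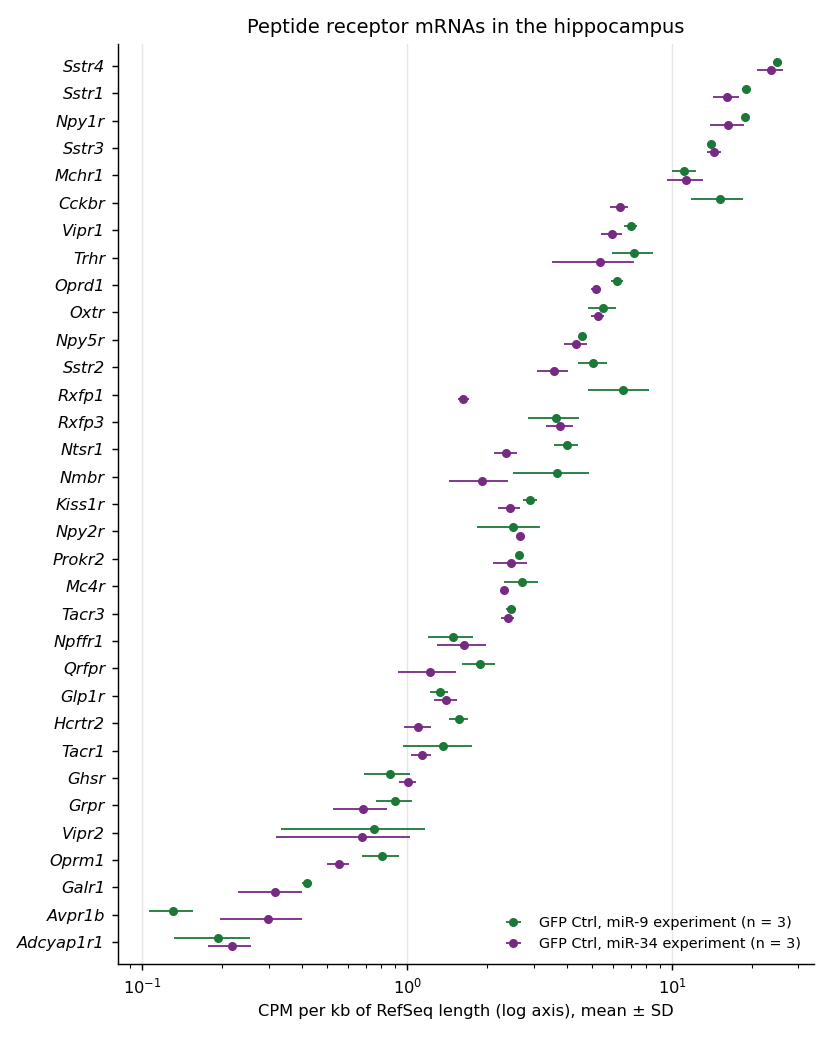
Levels of the 33 detected receptors in the GFP Ctrl mice, in CPM per kb of RefSeq length on a log axis, as mean ± SD of 3 mice in the miR-9 (green) and the miR-34 experiment (purple). Sstr4 is highest in both (25.0 and 23.6 CPM per kb), while Cckbr and Rxfp1 sit apart between the experiments.

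Some receptors differed more between both sets of GFP Ctrl mice than between sponge and GFP Ctrl. Rxfp1, the relaxin receptor, had 12 to 19.2 CPM in the GFP Ctrl mice of the miR-9 experiment and 3.51 to 3.82 CPM in those of the miR-34 experiment, a ratio of 4.0. Cckbr had 28.4 to 44.6 against 14.5 to 17 CPM, a ratio of 2.4. Neither receptor overlapped between the sets. In all, 5 of 33 receptors (Cckbr, Rxfp1, Ntsr1, Nmbr and Qrfpr) were at least 1.5 times higher in the miR-9 experiment, against 3.13% of 12700 genes, and 1, Avpr1b, was at least 1.5 times lower, against 5.93%. The median ratio was 1.17 over the receptors and 1.04 over all genes. Summed neocortex markers were also higher in the GFP Ctrl mice of the miR-9 experiment (348 to 423 CPM) than in those of the miR-34 experiment (252 to 270.5 CPM). So were summed CA1 markers (1196 to 1305 against 976 to 1071 CPM) and microglia markers (661 to 680 against 592 to 633.5 CPM). Summed CA2 and CA3 markers were lower (213 to 253 against 279 to 302 CPM), and the sums of the other marker lists overlapped. The part of these lists in the receptor values was not tested. The experiment, dissection and library preparation cannot be told apart here, so each sponge group was compared only with its own GFP Ctrl mice.

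The peptides that act on these receptors were in part made in the same tissue. Sst, the precursor of somatostatin, had 406 CPM per kb in the GFP Ctrl mice of the miR-9 experiment and 342 in the miR-34 experiment, above every receptor. Npy followed with 84.0 and 73.6 CPM per kb, Penk, the enkephalin precursor, with 36.6 and 32.6, Grp, which acts on Grpr, with 27.2 and 26.6, and Vip with 20.7 and 14.7. The ligands of other receptors were near 0 in the tissue, as for Mchr1, whose peptide gene Pmch had 0.206 and 0.189 CPM per kb, for Oxtr, with Oxt at 0.227 and 0.663, and for Glp1r, with Gcg at 0.0464 and 0.0224. Pmch, Oxt and Gcg are known to be made by cells outside the hippocampus. Pomc, with 5 entries, was listed at 0 and Cck, with 2 entries, at 0.33 and 0.19 CPM per kb, although Cck is a well known peptide of hippocampal interneurons, so the limit on genes with several entries applies to ligands too.

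**Figure D2:**
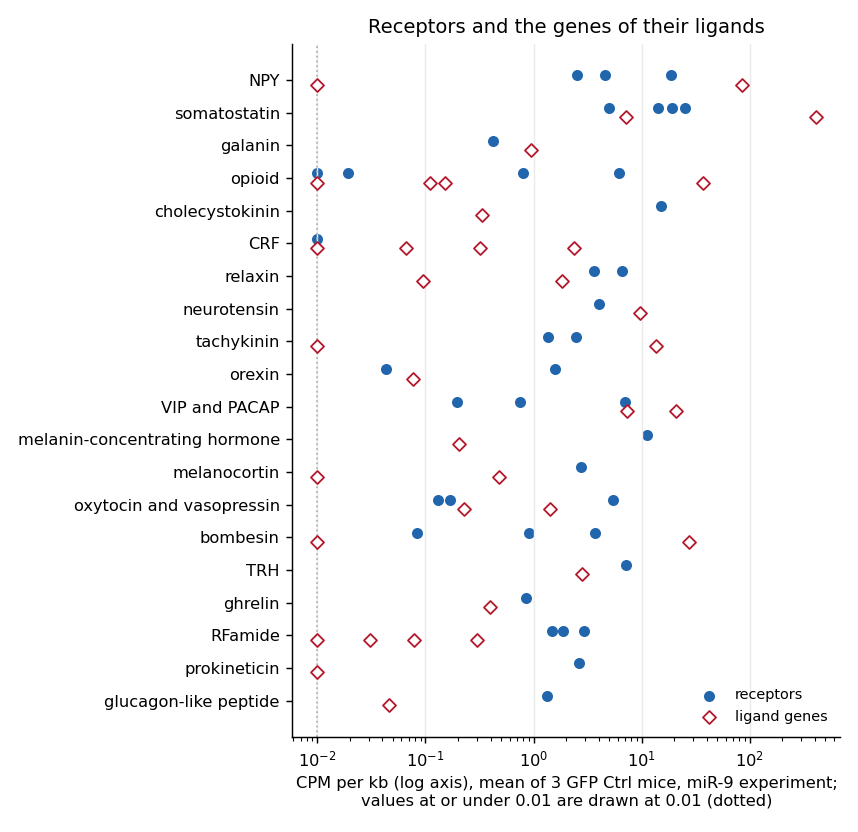
Levels of all 39 receptors (blue points) and of the genes of their ligands (red diamonds) by family, as the mean of 3 GFP Ctrl mice of the miR-9 experiment in CPM per kb on a log axis, with values at or under 0.01 drawn on the dotted line. Sst is the highest at 406 CPM per kb, while Pmch, Oxt and Gcg lie below their receptors.

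No receptor passed the test after either sponge once p-values were adjusted over all genes. In the miR-9 experiment 0 of 33 receptors and 0 of 12907 genes (0.0%) had an adjusted p under 0.05 (edgeR quasi-likelihood test, Benjamini-Hochberg), with 614 genes at an unadjusted p under 0.05, and DESeq2 called 2 genes, of which 0 were receptors. In the miR-34 experiment the adjusted test called 0 of 33 receptors and 4 of 12364 genes (0.0324%), and DESeq2 35 genes, also without a receptor. At an unadjusted p under 0.05, 1 receptor was higher after miR-9sp (Sstr3), against 2.5% of all genes, and 4 were lower (Sstr2, Ghsr, Mc4r and Vipr2), against 2.25%. After miR-34sp 1 was higher (Rxfp1), against 2.69%, and 1 was lower (Tacr1), against 3.7%. For the miR-9 experiment the split over all genes depended on the scaling, with 323 higher and 291 lower at an unadjusted p under 0.05 with TMM and 190 and 482 with total counts, but the same 5 receptors were called with both.

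The fold changes of most receptors were close to 0. The fitted value was above 0 for 15 of 33 receptors after miR-9sp and for 15 of 33 after miR-34sp, against 49.7% of all genes in each experiment. The median log2 fold change of the receptors was -0.05 after miR-9sp and -0.02 after miR-34sp. Leaving out 1 mouse gave -0.0176 to 0.0205 after miR-9sp, which excludes the value of all mice, and -0.0566 to 0.0378 after miR-34sp. The 95% interval of the fold change lay within 1.5-fold in both directions for 21 receptors after miR-9sp and for 19 after miR-34sp, and within 2-fold for 30 and 29. The intervals that reached past 2-fold belonged to Galr1, Vipr2 and Avpr1b in both experiments and to Rxfp1 after miR-34sp. All sponge mice lay above all GFP Ctrl mice for 4 receptors after miR-9sp (5.19% of all genes) and for 3 after miR-34sp (5.81%), and below them for 5 (5.04%) and 2 (5.77%).

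**Figure D3:**
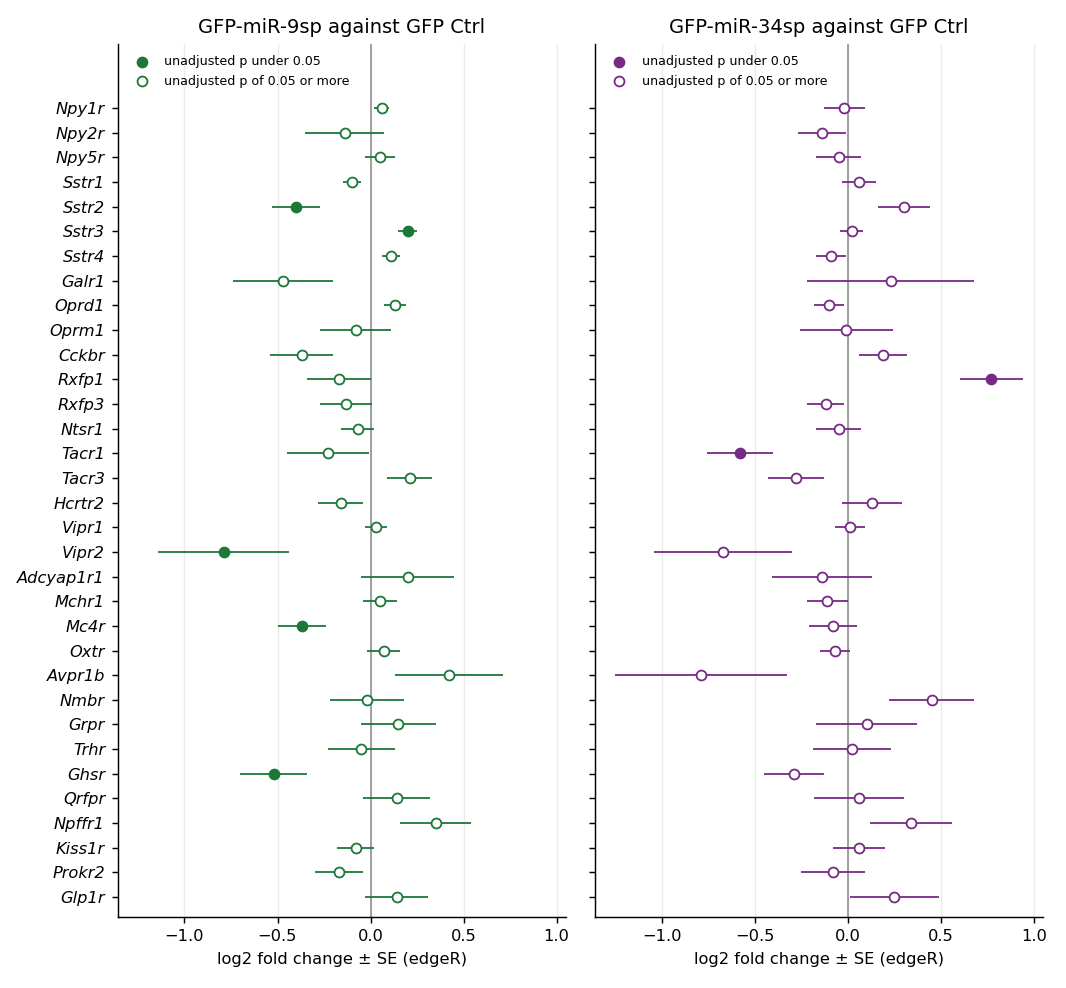
Fitted log2 fold change ± SE (edgeR) of the 33 tested receptors after miR-9sp (left) and miR-34sp (right), ordered by ligand family, with filled points for an unadjusted p under 0.05. Most points lie close to 0, and 5 are filled on the left and 2 on the right, none of which passed after adjustment.

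All 4 listed somatostatin receptors, which inhibit adenylyl cyclase and open potassium channels, were detected. Sstr2 was at 5.94, 4.86 and 5.92 CPM in the GFP-miR-9sp mice 17, 23 and 9, and at 6.63, 7.21 and 8.4 CPM in their GFP Ctrl mice 16, 2 and 8. All sponge mice were below all GFP Ctrl mice, with a log2 fold change of -0.40 ± 0.13 (SE, adjusted p = 0.97). In the miR-34 experiment the order was the opposite, with 6.7, 6.55 and 6.23 CPM in GFP-miR-34sp mice 13, 18 and 3 and 5.07, 6.08 and 4.76 CPM in GFP Ctrl mice 10, 4 and 8 (log2 0.30 ± 0.14, adjusted p = 0.793). Here all sponge mice were above all GFP Ctrl mice, by a small margin. The difference between both effects was 0.70 ± 0.19 on the log2 scale (95% interval 0.29 to 1.1, adjusted p = 0.703). Without GFP Ctrl mouse 8 the fold change after miR-9sp was -0.31 and its unadjusted p was no longer under 0.05.

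Sstr3 had the smallest unadjusted p of the receptors after miR-9sp. Its values were 62.7, 64.1 and 62.9 CPM in the sponge mice 17, 23 and 9 and 53.3, 57.4 and 54.0 CPM in the GFP Ctrl mice 16, 2 and 8. The sponge mice lay close together and above every GFP Ctrl mouse, by a log2 fold change of 0.20 ± 0.05 (adjusted p = 0.97), a ratio of means of 1.15. In the miR-34 experiment Sstr3 had 57.1, 61.0 and 54.7 CPM after the sponge and 60.5, 54.1 and 55.4 CPM in GFP Ctrl mice (log2 0.02 ± 0.06), and the groups overlapped. The difference between the effects was -0.19 ± 0.08 (miR-34 minus miR-9, adjusted p = 0.764).

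Sstr4 had 37.4, 38.3 and 35.9 CPM after miR-9sp and 33.2, 34.1 and 35.9 CPM in the GFP Ctrl mice. The groups touched without overlapping, at a log2 fold change of 0.11 ± 0.05. After miR-34sp it had 32.1, 30.1 and 30.2 CPM against 33.3, 36.1 and 28.9 CPM, with overlap (log2 -0.09 ± 0.08). Sstr1, with a miR-34 match, had 65.9, 71.6 and 58.3 CPM after miR-34sp and 68.8, 54.5 and 63.8 CPM in GFP Ctrl mice (log2 0.06 ± 0.09). In the miR-9 experiment it had 73.0, 64.2 and 67.1 CPM against 70.2, 74.9 and 74.5 CPM (log2 -0.10 ± 0.05). Both comparisons of Sstr1 overlapped. Sst itself, the ligand gene, was at 228.5 ± 8.96 CPM after miR-34sp and 205.3 ± 13.8 CPM (SD, n = 3) in GFP Ctrl mice, all sponge mice above (log2 0.15 ± 0.05, adjusted p = 0.612).

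**Figure D4:**
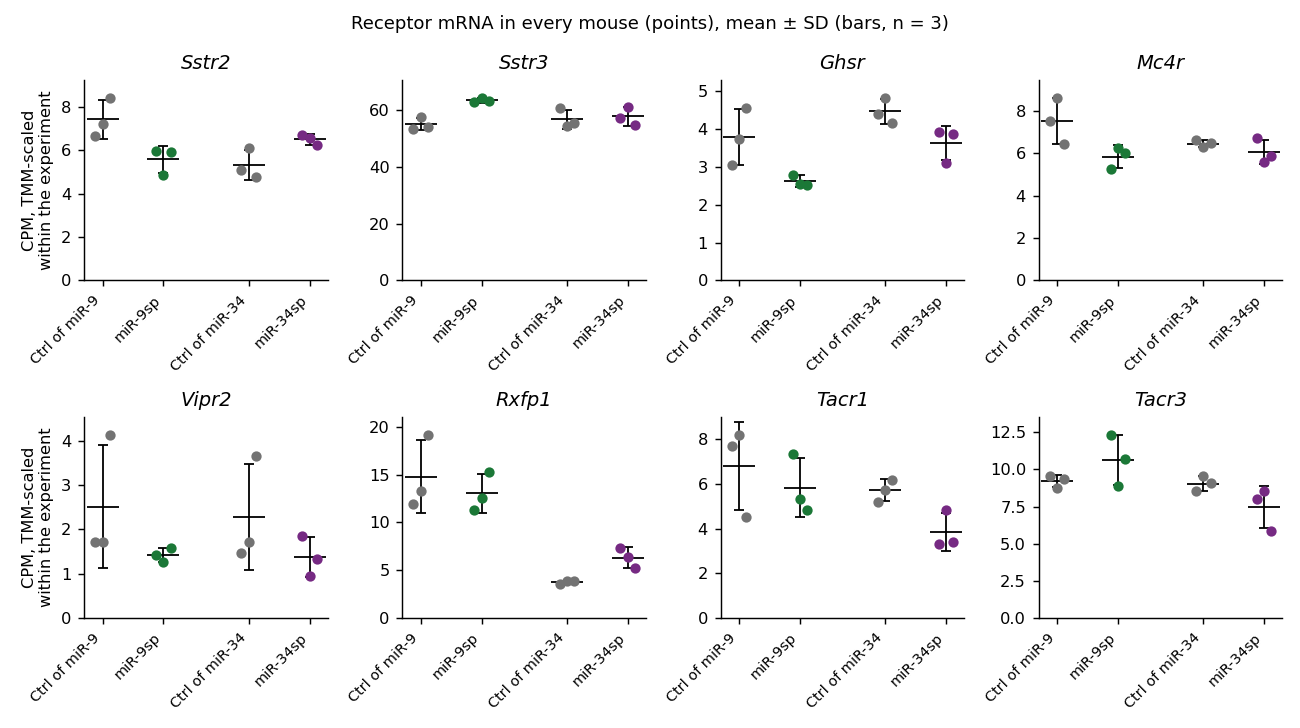
CPM of 8 receptors in every mouse (points, TMM-scaled within each experiment), with mean ± SD of 3 mice (bars) and the axis from 0, for GFP Ctrl and miR-9sp on the left and GFP Ctrl and miR-34sp on the right of each panel. Sstr2 lies lower after miR-9sp and higher after miR-34sp, Rxfp1 is higher after miR-34sp but below both groups of the miR-9 experiment, and 1 GFP Ctrl mouse of each set stands high for Vipr2.

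The receptors for NPY, an inhibitory peptide of interneurons, stayed close to their GFP Ctrl values. Npy1r, which carries a miR-9 match, had 58.7, 56.8 and 60.3 CPM after miR-9sp and 55.2, 56.2 and 57.1 CPM in GFP Ctrl mice. The groups overlapped, and with a log2 fold change of 0.06 ± 0.04 its 95% interval, -0.03 to 0.16, was among the narrowest of the list. After miR-34sp it had 47.2, 56.0 and 43.1 CPM against 55.4, 41.1 and 51.0 CPM (log2 -0.02 ± 0.11). The presynaptic receptor Npy2r ran from 5.81 to 10.9 CPM over the 6 mice of the miR-9 experiment and from 7.5 to 9.32 CPM in the other, with a log2 fold change of -0.14 in each. Npy5r ran from 10.4 to 11.1 CPM and from 9.26 to 11.2 CPM (log2 0.05 ± 0.08 and -0.05 ± 0.12).

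Among the opioid receptors, Oprd1 (delta) was the highest. It had 27.2, 26.3 and 27.3 CPM after miR-9sp and 23.8, 24.2 and 26.3 CPM in GFP Ctrl mice, so that the nearest mice of the 2 groups were equal to 3 digits (log2 0.13 ± 0.06, adjusted p = 0.97). After miR-34sp, the sponge against the miRNA whose match it carries, it had 20.1, 19.0 and 18.5 CPM against 19.9, 21.6 and 20.6 CPM, with overlap (log2 -0.10 ± 0.08). The difference between the effects was -0.23 ± 0.09 (adjusted p = 0.764). Oprm1 (mu) had 1.67 to 2.32 CPM in the miR-9 experiment and 1.19 to 1.66 CPM in the miR-34 experiment, with overlap in both (log2 -0.08 ± 0.19 and -0.01 ± 0.25). Their ligand gene Penk had 36.1 ± 6.0 CPM after miR-34sp and 46.1 ± 10.1 CPM in GFP Ctrl mice (log2 -0.37 ± 0.14, adjusted p = 0.712), with overlapping groups. Galr1, a galanin receptor, was near the detection limit, at 1.12, 0.534 and 0.891 CPM after miR-9sp and 1.18, 1.15 and 1.25 CPM in GFP Ctrl mice, without overlap (log2 -0.47 ± 0.27, adjusted p = 0.97). Without sponge mouse 17 the value was -0.72 and without sponge mouse 23 it was -0.25. After miR-34sp it had 1.54, 1.21 and 0.371 CPM against 0.808, 0.726 and 1.19 CPM, with overlap (log2 0.23 ± 0.45).

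Rxfp1, which raises cyclic AMP when relaxin binds, had the smallest unadjusted p of all receptors. It was at 7.35, 6.38 and 5.19 CPM in GFP-miR-34sp mice 13, 18 and 3 (124, 74 and 70 reads) and at 3.52, 3.81 and 3.82 CPM in GFP Ctrl mice 10, 4 and 8 (48, 42 and 45 reads). Every sponge mouse was above every GFP Ctrl mouse, with a log2 fold change of 0.77 ± 0.17 (95% interval 0.40 to 1.14, adjusted p = 0.246). Leaving out any 1 of the 6 mice gave 0.63 to 0.89. In the miR-9 experiment the values were 11.3, 12.5 and 15.3 CPM after the sponge and 11.9, 13.3 and 19.1 CPM in GFP Ctrl mice, which overlapped (log2 -0.17 ± 0.17), and without GFP Ctrl mouse 8 the value was 0.05. The difference between the effects was 0.94 ± 0.28 (95% interval 0.34 to 1.55, adjusted p = 0.703). With CPM scaled within each experiment, the level after miR-34sp was below every mouse of the miR-9 experiment. The summed neocortex markers were higher in all 3 GFP-miR-34sp mice as well, while the 7 genes of that list had a median log2 fold change of 0.066 and ran from -0.07 (Scnn1a) to 0.22 (Tbr1, the 1 gene of the list with an unadjusted p under 0.05, adjusted p = 0.44). Their part in the Rxfp1 values was not tested. The gene spans chr3:79448638-79541716 on the minus strand in mm9. Rxfp3, the receptor for relaxin-3, had 12 to 18.7 and 14.1 to 17.8 CPM over the mice of the 2 experiments (log2 -0.13 ± 0.14 and -0.12 ± 0.10).

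Cckbr, the main cholecystokinin receptor of the brain, had 33.4, 22.2 and 31.0 CPM after miR-9sp and 40.0, 28.1 and 44.2 CPM in GFP Ctrl mice. The groups overlapped, with a log2 fold change of -0.37 ± 0.17 (adjusted p = 0.97). It ran from -0.54 to -0.22 when 1 mouse was left out, with an unadjusted p under 0.05 without GFP Ctrl mouse 2 (-0.54) or sponge mouse 17 (-0.49), and also in 1 model of all 12 mice and without a filter. After miR-34sp it had 19.0, 20.7 and 14.6 CPM against 17, 14.5 and 15.7 CPM, again with overlap (log2 0.19 ± 0.13, or 0.10 to 0.33 without 1 mouse). The difference between the effects was 0.56 ± 0.26 (adjusted p = 0.794). Its values varied more between mice of a group than those of Sstr3. Without 1 mouse the difference kept an unadjusted p under 0.05 in 5 of 12 cases. Without miR-9sp mouse 23 it was 0.41, with an unadjusted p above 0.05.

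Of the tachykinin receptors, Tacr1, which binds substance P, was lower after miR-34sp. It had 3.32, 4.82 and 3.41 CPM in mice 13, 18 and 3 and 5.21, 5.72 and 6.2 CPM in GFP Ctrl mice 10, 4 and 8. No sponge mouse reached the GFP Ctrl range, and the log2 fold change was -0.58 ± 0.18 (adjusted p = 0.556), or -0.76 to -0.48 when 1 mouse was left out. After miR-9sp Tacr1 had 7.36, 5.34 and 4.82 CPM against 7.69, 8.18 and 4.54 CPM (log2 -0.23 ± 0.22), and the effects were not told apart (difference -0.36 ± 0.32). Tac1, the precursor of substance P, was also lower after miR-34sp, at 9.92 ± 0.695 CPM against 12.8 ± 1.71 CPM (SD, n = 3, log2 -0.37 ± 0.12, adjusted p = 0.586). Summed striatum markers, a tissue rich in Tac1 and Penk, were 62.5 to 65.2 CPM in these sponge mice and 69.0 to 107 CPM in the GFP Ctrl mice, and their part was not tested. The highest of them, Ppp1r1b, was at 42.9 against 59.7 CPM. Of these 8 markers 6 were tested, with 3 lower at an unadjusted p under 0.05 (Ppp1r1b, Six3 and Adora2a). Drd2 (0.04) and Rgs9 (0.02) lay above 0. Tacr3, which binds neurokinin B and carries the miR-34 8mer, had 8.01, 8.53 and 5.86 CPM after miR-34sp and 8.52, 9.53 and 9.09 CPM in GFP Ctrl mice, with the nearest mice at 8.53 and 8.52 (log2 -0.28 ± 0.15). After miR-9sp it had 12.3, 8.9 and 10.7 CPM against 9.56, 8.78 and 9.34 CPM, with overlap (log2 0.21 ± 0.12), and the difference between the effects was -0.49 ± 0.20 (adjusted p = 0.764). Without 1 mouse the value ran from 0.09 (without sponge mouse 17) to 0.32 (without sponge mouse 23) after miR-9sp and from -0.37 to -0.13 after miR-34sp, and the difference kept an unadjusted p under 0.05 in 8 of 12 cases.

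Ntsr1, the high-affinity neurotensin receptor and a carrier of a miR-34 match, had 8.84, 9.56 and 8.52 CPM after miR-34sp and 8.37, 9.25 and 10.2 CPM in GFP Ctrl mice (log2 -0.05 ± 0.12). In the miR-9 experiment it had 15.2, 13.7 and 15.5 against 17.1, 13.8 and 15.8 CPM (log2 -0.07 ± 0.09). Its ligand gene Nts was at 9.55 ± 0.865 CPM after miR-34sp and 7.28 ± 1.83 CPM in GFP Ctrl mice (log2 0.39 ± 0.17, adjusted p = 0.755). Hcrtr2, an excitatory orexin receptor, had 3.57 to 4.89 CPM in the miR-34 experiment and 4.66 to 6.37 CPM in the miR-9 experiment. Both Ntsr1 and Hcrtr2 overlapped between sponge and GFP Ctrl mice.

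The receptors for VIP and PACAP raise cyclic AMP. Vipr1, with 2 miR-9 matches, had 33.3, 34 and 36.7 CPM after miR-9sp and 32.6, 33.3 and 36.0 CPM in GFP Ctrl mice, a log2 fold change of 0.03 ± 0.06 with a 95% interval of -0.10 to 0.17. After miR-34sp it had 29.1, 30.9 and 27.9 CPM against 30.8, 30.6 and 26.1 CPM (log2 0.01 ± 0.08). Both comparisons of Vipr1 overlapped. Vipr2, with the miR-9 8mer and a second match, had 1.42, 1.25 and 1.57 CPM after miR-9sp and 1.71, 1.71 and 4.12 CPM in GFP Ctrl mice 16, 2 and 8. The sponge mice were below all GFP Ctrl mice (log2 -0.79 ± 0.35, adjusted p = 0.97), but GFP Ctrl mouse 8 had more than the other two together. Without it the log2 fold change was -0.27, and the unadjusted p was above 0.05 without it or without any 1 of the sponge mice. In the other experiment the groups overlapped, with 1.84, 0.948 and 1.33 CPM after the sponge and 1.47, 1.72 and 3.65 CPM in GFP Ctrl mice 10, 4 and 8 (log2 -0.67 ± 0.37), and -0.16 without its GFP Ctrl mouse 8. The summed thalamus and habenula markers were highest of each experiment in the same mice, at 285 and 275 CPM, against 195 to 264 CPM in the other 10, and their part was not tested. Tcf7l2, Chrnb3 and Lef1 among these markers were at or near 0 in all groups. Adcyap1r1, the PACAP receptor, had 0.878 to 1.63 and 1.04 to 1.62 CPM over the mice of the 2 experiments and overlapped in both, while its ligand gene Adcyap1 was at 12.7 ± 0.94 CPM after miR-9sp and 15.3 ± 0.541 CPM in GFP Ctrl mice (log2 -0.27 ± 0.08, adjusted p = 0.97).

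Receptors known from the control of feeding and metabolism included 2 with lower values after miR-9sp. Ghsr, the ghrelin receptor, had 2.79, 2.55 and 2.51 CPM after miR-9sp and 3.05, 3.74 and 4.54 CPM in GFP Ctrl mice 16, 2 and 8. The groups did not overlap (log2 -0.52 ± 0.18, adjusted p = 0.97), and without GFP Ctrl mouse 8 the value was -0.37 with an unadjusted p above 0.05. After miR-34sp the groups did not overlap either, at 3.91, 3.1 and 3.85 CPM against 4.4, 4.81 and 4.16 CPM (log2 -0.29 ± 0.16). Ghsr carried neither match.

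Mc4r, a melanocortin receptor, carries a miR-9 match. It had 5.23, 6.23 and 6.02 CPM after miR-9sp and 7.53, 8.59 and 6.42 CPM in GFP Ctrl mice (log2 -0.37 ± 0.13, adjusted p = 0.97), all sponge mice being lower. Without GFP Ctrl mouse 2 the value was -0.27 and without sponge mouse 17 it was -0.30, both with an unadjusted p above 0.05. In the miR-34 experiment it had 6.7, 5.6 and 5.86 CPM against 6.61, 6.26 and 6.46 CPM, with overlap (log2 -0.08 ± 0.13), and the difference between the effects was 0.29 ± 0.18.

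Mchr1 had 26, 22 and 26.9 CPM after miR-9sp and 22.4, 23 and 27.0 CPM in GFP Ctrl mice (log2 0.05 ± 0.09), and 21.5, 25.3 and 22.5 CPM after miR-34sp against 28.9, 24.1 and 21.2 CPM (log2 -0.11 ± 0.11). Both comparisons overlapped. Trhr, the receptor for thyrotropin-releasing hormone with a miR-9 match, varied strongly within the groups, at 36.3, 24.7 and 21.8 CPM after miR-9sp and 33.0, 29.3 and 23 CPM in GFP Ctrl mice (log2 -0.05 ± 0.18). The other experiment gave 20.9, 26.5 and 18.3 CPM against 28.3, 13.7 and 22 CPM (log2 0.02 ± 0.21), and all groups of Trhr overlapped. Glp1r, the receptor for glucagon-like peptide, was low, at 2.13, 2.31 and 2.04 CPM after miR-9sp and 2.03, 2.03 and 1.77 CPM in GFP Ctrl mice, without overlap but with an interval from -0.23 to 0.51 (log2 0.14 ± 0.17, adjusted p = 0.972). After miR-34sp it had 3.14, 1.81 and 2.3 CPM against 2.28, 2.09 and 1.87 CPM, with overlap (log2 0.25 ± 0.24).

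Oxtr, the oxytocin receptor, had 24.5 to 27.5 CPM after miR-9sp and 22 to 27.9 CPM in GFP Ctrl mice (log2 0.07 ± 0.09), and 21.1 to 24.8 against 22.6 to 25.4 CPM in the miR-34 experiment (log2 -0.07 ± 0.08). Avpr1b, a vasopressin receptor known from CA2 pyramidal cells, was at 6, 16 and 8 reads in GFP-miR-34sp mice 13, 18 and 3 and at 23, 13 and 10 reads in GFP Ctrl mice 10, 4 and 8. The groups overlapped, and the log2 fold change of -0.79 ± 0.46 had a 95% interval from -1.79 to 0.21. After miR-9sp it was at 12, 15 and 13 reads against 11, 14 and 10 (log2 0.42 ± 0.29, with overlap), and the difference between the effects was -1.21 ± 0.58 (adjusted p = 0.794). Of 8 markers of CA2 and CA3 cells, 6 were tested after miR-34sp, with 3 lower at an unadjusted p under 0.05 (Rgs14, Map3k15 and Grik4) and 2 above 0 (Iyd at 0.13 and Socs2 at 0.16). After miR-9sp 7 were tested, with Rgs14 and Bok higher and Iyd at -0.48 ± 0.23. Rgs14, a CA2 gene that limits G protein signalling, was at 98.5 ± 6.21 CPM after miR-34sp and 124.7 ± 8.77 CPM in GFP Ctrl mice (SD, n = 3, log2 -0.34 ± 0.06, adjusted p = 0.0996). After miR-9sp it was at 115.7 ± 12.4 against 96.9 ± 5.08 CPM (log2 0.26 ± 0.07, adjusted p = 0.97).

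Of the receptors for bombesin-like peptides, Nmbr (neuromedin B) had 2.52 to 3.45 CPM after miR-34sp and 1.81 to 2.89 CPM in GFP Ctrl mice (log2 0.45 ± 0.23), with overlap, and 3.86 to 4.45 against 3.5 to 5.85 CPM in the miR-9 experiment (log2 -0.02 ± 0.20). Grpr, which marks a share of the interneurons, had 1.83 to 3.02 and 1.25 to 2.15 CPM over the mice of the 2 experiments. Among the receptors for RFamide peptides, Npffr1 had 2.59, 2.31 and 2.51 CPM after miR-9sp and 2.32, 1.89 and 1.57 CPM in GFP Ctrl mice (log2 0.35 ± 0.19). The miR-34sp mice had 3.14, 2.5 and 2.52 CPM against 2.5, 1.63 and 2.29 CPM (log2 0.34 ± 0.22), the nearest mice being equal to the digits given. Kiss1r, the kisspeptin receptor, had 8.28 to 9.76 and 7.04 to 9.07 CPM over the mice of the 2 experiments, Qrfpr 2.79 to 4.14 and 1.63 to 2.76 CPM, and Prokr2, a prokineticin receptor, 8.01 to 12.1 and 8.18 to 13.0 CPM. These 3 overlapped between sponge and GFP Ctrl mice in both experiments.

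Receptors with a seed match for the inhibited miRNA had values in both directions. After miR-9sp the 5 tested receptors with a miR-9 match had a median log2 fold change of -0.05, and the other tested receptors -0.04. At an unadjusted p under 0.05, 2 of the 5 were lower (Vipr2 and Mc4r) and 0 higher, against 2.25% and 2.5% of all genes. Among the remaining receptors 2 were lower (Sstr2 and Ghsr) and 1 higher (Sstr3). Without 1 mouse Vipr2 kept its call in 2 of 6 cases, Mc4r in 4, Sstr2 and Ghsr in 5 each and Sstr3 in 6. After miR-34sp the 4 with a miR-34 match had a median of -0.08 and the other tested receptors -0.01. None of the 4 had an unadjusted p under 0.05. In both experiments the other receptors include Rxfp1 and Npffr1, which had no annotated 3′ UTR to search. No test compared receptors with and without a match, and the tissue also holds cells without the sponge.

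The difference between both sponge effects was tested over 12700 genes in 1 model of all 12 mice. No gene passed after adjustment (0.0%), DESeq2 called 5 genes, and at an unadjusted p under 0.05 there were 6 of 33 receptors, against 6.14% of all genes. Sstr2, Rxfp1 and Cckbr had the more positive value after miR-34sp, and Sstr3, Oprd1 and Tacr3 after miR-9sp. When 1 mouse was left out, 3 to 7 receptors were under that limit, with Sstr2 and Rxfp1 among them in all 12 cases, Sstr3, Oprd1 and Tacr3 in 8 each and Cckbr in 5.

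Of the genes around the receptors none had an adjusted p under 0.05. At an unadjusted p under 0.05 there were 4.76% of all genes in the miR-9 and 6.38% in the miR-34 experiment, against 3 of 14 and 4 of 12 ligand genes and 5 of 30 and 2 of 29 genes of G protein coupling, which are counts of small lists with no test. Of 36 ligand genes 14 were tested in the miR-9 experiment, where Pdyn was higher and Rln1 and Adcyap1 lower at an unadjusted p under 0.05 (Pdyn passed the filter through its sponge mice alone, at 0.784 against 0.276 CPM, so that its call is in part set by the filter), and 12 in the miR-34 experiment, where Sst and Nts were higher and Penk and Tac1 lower. Of 14 genes for peptide maturation and dense-core vesicles 13 were tested. Scg2, a granin, was at 310.9 ± 4.9 CPM after miR-9sp and 341 ± 21.8 CPM in GFP Ctrl mice (log2 -0.13 ± 0.05), and Scg5, a chaperone of a prohormone convertase, at 245 ± 2.93 against 232 ± 6.72 CPM after miR-34sp (log2 0.08 ± 0.04). No tested peptidase of 8 (of 11 listed) reached that limit in either experiment.

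Of 36 further peptide receptors 16 were tested in the miR-9 experiment, with 2 lower (Sctr and Agtr1a) at an unadjusted p under 0.05, and 13 in the miR-34 experiment, with Npr2 higher and Npr1 and Ntsr2 lower. Npr1 and Npr2 are receptors for natriuretic peptides, and Npr1 had 9.01 ± 0.933 CPM after miR-34sp and 11.5 ± 1.09 CPM in GFP Ctrl mice (log2 -0.35 ± 0.12). Of 39 genes for G proteins, cyclases, phospholipases, receptor kinases and arrestins, 30 were tested after miR-9sp, with Adcy1 and Rgs14 higher and Gna12, Gnb4 and Plcb4 lower, and 29 after miR-34sp, with Adcy5 and Rgs14 lower. Adcy5, an adenylyl cyclase, had 185 ± 7.95 CPM after miR-34sp and 206.6 ± 8.96 CPM in GFP Ctrl mice (log2 -0.16 ± 0.05, adjusted p = 0.495).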

How the data were processed

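RNA of bilateral hippocampal tissue from 12 mice was sequenced as 50 bp single end reads. The authors deposited raw counts per RefSeq transcript and, as another value, the length of each entry in bases. Their methods name mm9, the submitters' processing notes mm10 and STAR, and the counting rule is not given in the sources used here. The methods describe poly-A enrichment, and the headers of the miR-9 experiment contain totRNA. One set of GFP Ctrl labels names no experiment and was taken as that of the miR-9 experiment.

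Of 32850 entries 98.7% had a gene symbol, and counts were summed by symbol. Entries without one held 0.773% to 2.18% of the reads of a mouse. Genes with a mean above 10 scaled reads over the 6 mice were tested with edgeR 4.0.16 (R 4.3.3, TMM, quasi-likelihood, Benjamini-Hochberg over all genes tested), and fold changes carry SE from that fit. Alternatives were DESeq2 1.42.0, other scalings and filters, unsummed entries, 1 model of 12 mice, the criterion of the methods and leaving out each mouse. Fold change intervals cover the spread between mice, and the floor of 3 reads counting error only. The biological coefficient of variation was 0.0607 (miR-9) and 0.0516 (miR-34). The code was tested on simulated data. Sites were searched with Python 3.11.15, pandas 2.3.3, and figures made with matplotlib 3.10.9.

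The receptors and the other lists were chosen with earlier results of these data known. Values in every mouse are given for the 5 receptors with the highest level per length, those with an unadjusted p under 0.05 in an experiment or for the difference, those whose groups do not overlap (at most 12 by p) and carriers of a seed match. One marker gene is not reported here.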

Additional observations from a re-analysis of the deposited data

Results flagged for a closer look

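The groups of Sstr2 did not overlap in either experiment and lay in opposite order, with all GFP-miR-9sp mice below and all GFP-miR-34sp mice above their GFP Ctrl mice. Of all genes, 5.04% lay below without overlap after miR-9sp and 5.81% above after miR-34sp. Sstr2 was picked out for this order, and the share of all genes with both was not counted. The difference between the effects was 0.70 on the log2 scale (edgeR, adjusted p = 0.703), and 0.60 to 0.80 when 1 of the 12 mice was left out, with an unadjusted p under 0.05 each time. The level in the GFP Ctrl mice differed as well, at 6.67 to 8.47 CPM in the miR-9 experiment and 4.76 to 6.07 CPM in the miR-34 experiment. Sstr2 has 2 RefSeq entries.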

How the results depend on the processing

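No paired analysis was possible because sponge mice and their GFP Ctrl mice share no mouse number. In the miR-9 experiment 5 receptors had an unadjusted p under 0.05, against 4.76% of all genes. The count was 1 with the criterion of the methods, and 5 to 6 when 1 mouse was left out. Genes with an adjusted p under 0.05 numbered 0, 2 with DESeq2, 2 without a filter, and 0 to 1 without 1 mouse. The median log2 fold change of the receptors was -0.0464, and -0.0176 to 0.0205 without 1 mouse, a range that does not hold the value of all mice.

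In the miR-34 experiment 2 receptors were called, against 6.38% of all genes, and 2 to 4 without 1 mouse. The genes with an adjusted p under 0.05 numbered 4, 0 in 1 model of all 12 mice, 0 with the criterion of the methods, 35 with DESeq2, 8 with unsummed entries, 0 with more than 50 reads, 80 without a filter, and 0 to 56 without 1 mouse (56 without GFP Ctrl mouse 10). The median was -0.0227, and -0.0566 to 0.0378 without 1 mouse.

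For the difference between the effects, 6 receptors were called, against 6.14% of all genes. The count was 3 with DESeq2 and 3 to 7 without 1 mouse. Genes with an adjusted p under 0.05 numbered 0, 5 with DESeq2 and 0 to 1 without 1 mouse. The difference for Npffr1 was 0.02 with total counts and -0.00 with TMM. The causes of these shifts were not tested. Sstr3 after miR-9sp (0.18 to 0.24), Rxfp1 (0.63 to 0.89) and Tacr1 (-0.76 to -0.48) after miR-34sp kept an unadjusted p under 0.05 without any 1 mouse. Without 1 mouse the sign turned for Rxfp1 (-0.31 to 0.05), and Mchr1 ran from 0.00 to 0.14, after miR-9sp. After miR-34sp the ranges were -0.13 to 0.08 for Npy1r, -0.03 to 0.14 for Sstr1, -0.02 to 0.07 for Sstr3, -0.25 to 0.62 for Galr1 and -0.01 to 0.40 for Glp1r, and -0.21 to 0.02 for Mchr1. For the difference they were -0.20 to 0.01 for Npy1r, -0.41 to 0.63 for Vipr2, -0.17 to 0.13 for Npffr1 and -0.16 to 0.25 for Glp1r. Receptors that came under an unadjusted p of 0.05 only without 1 mouse were Npffr1, Sstr1, Sstr4, Oprd1, Rxfp3, Tacr1, Tacr3, Galr1 and Cckbr after miR-9sp (Cckbr also with 2 other settings) and Sstr2, Sstr4, Nmbr, Tacr3, Avpr1b, Cckbr and Vipr2 after miR-34sp (Vipr2 also without a filter, Sstr2 also with the criterion of the methods). At this depth and number of mice a change of 2-fold lay within the interval for Galr1, Vipr2 and Avpr1b in both experiments. The same held for Rxfp1 after miR-34sp.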
